A study of Mus musculus with 24 samples.

Results

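The AP-1 transcription factors described here are the products of 8 genes, namely Fos, Fosb, Fosl1, Fosl2, Jun, Junb, Jund and Atf3, which were taken by name from a table of read counts for 47593 genes in mouse hippocampus. The study asked how hippocampal transcription responds to a stressful experience when the gene Tob is missing. RNA was sequenced from 24 mice in 8 groups of 3. The mice were male, 8 to 12 weeks old and of the C57BL/6J strain. They carried either the wild-type genotype (WT) or the Tob-KO genotype, and each genotype was sampled in 4 states. Mice were either naive, without any conditioning, or were killed 15 min, 1 h or 3 h past a session of fear conditioning, in which a tone was paired with foot shocks in a chamber. Naive mice received no conditioning, so the shock, the tone, the chamber and the handling cannot be told apart. For the making of the Tob-KO mice the study refers to earlier work, and its hippocampus-specific knockout is a separate line not analysed here.

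AP-1 is not a single protein but a pair of basic leucine zipper (bZIP) proteins, usually 1 from the Fos family and 1 from the Jun family, that grip DNA together. Fos proteins cannot pair with themselves and need a Jun partner, whereas Jun proteins can also pair with each other or with relatives such as ATF3. In neurons, Fos, Fosb and Junb are immediate early genes: calcium and kinase signals act on transcription factors that already sit at their promoters, so that their RNA appears within minutes without new protein synthesis and is then rapidly degraded. Fos RNA and protein are for this reason widely used to mark cells that were recently active.

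The sequences just before the start sites of 4 of these genes are printed first. Fos, Fosb and Junb are shown because they were the members that had risen by 15 min, and Jun for its TGACNTCA match. Each is the run of 250 bases before the start site in RefSeq on build GRCm38.p6, written 5′ to 3′ on the strand of the gene, and capitals mark TGACG (part of the cAMP response element, to which CREB and ATF proteins bind), TGACNTCA or TATAAA (the TATA box). Fos lies on chr12:85473640-85473889 (plus strand), Fosb on chr7:19310046-19310295 (minus strand), Junb on chr8:84978749-84978998 (minus strand) and Jun on chr4:95052223-95052472 (minus strand).
Fos: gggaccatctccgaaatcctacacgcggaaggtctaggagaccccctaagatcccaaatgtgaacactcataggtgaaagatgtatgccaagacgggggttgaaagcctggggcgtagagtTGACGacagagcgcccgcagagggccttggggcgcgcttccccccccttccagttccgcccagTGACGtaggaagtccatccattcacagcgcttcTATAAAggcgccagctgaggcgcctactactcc
Fosb: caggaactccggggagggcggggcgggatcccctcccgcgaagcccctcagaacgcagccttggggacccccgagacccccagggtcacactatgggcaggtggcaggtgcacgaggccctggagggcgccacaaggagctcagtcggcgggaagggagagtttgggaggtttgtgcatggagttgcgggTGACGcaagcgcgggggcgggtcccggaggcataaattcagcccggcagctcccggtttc
Junb: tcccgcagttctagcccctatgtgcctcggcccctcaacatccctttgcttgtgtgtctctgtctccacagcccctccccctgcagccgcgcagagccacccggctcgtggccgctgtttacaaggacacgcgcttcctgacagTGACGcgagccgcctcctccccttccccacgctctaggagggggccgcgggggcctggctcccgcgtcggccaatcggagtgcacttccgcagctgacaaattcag
Jun: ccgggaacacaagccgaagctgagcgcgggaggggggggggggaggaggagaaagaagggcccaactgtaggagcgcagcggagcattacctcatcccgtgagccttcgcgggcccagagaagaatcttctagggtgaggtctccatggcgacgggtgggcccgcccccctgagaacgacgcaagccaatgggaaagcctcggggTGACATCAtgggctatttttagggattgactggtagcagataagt

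The Fos run held 2 TGACG motifs, whose first bases lay 129 and 66 bases before the start site, and a TATAAA 33 bases before it. Fosb and Junb held 1 TGACG each, 60 and 106 bases before the start site, and in Jun a TGACNTCA lay 45 bases before it. Of the other members, the Atf3 window held 1 TGACG on the opposite strand, those of Fosl2 and Jund held none of these motifs, and Fosl1 had no entry in the RefSeq table. The RefSeq start sites used for these windows lay apart from the gene starts in the GENCODE annotation. They were 191183333 against 191218039 for Atf3, 32136472 against 32135801 for Fosl2 and 70697739 against 70698949 for Jund. The bases before those GENCODE starts were not searched. A TGACG on either strand was present in 17.7% of 32817 RefSeq promoters of the same length, a TGACNTCA in 7.49%, and a TATAAA on the strand of the gene in 7.6%. No window of a member with an entry held TGANTCA, a motif that AP-1 itself binds, on either strand, against 6.75% of all promoters. This search does not cover the TGACNTCA in the Jun window, which was counted separately, so it does not show that the windows lack AP-1 sites. None held a CArG box, to which SRF binds, against 1.47%. Sites more than 250 bases before the start site were not searched, so these genes may hold either motif further away. TGACNTCA can overlap TGACG, and a match of letters is a description of the window only.

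The libraries held 28847989 to 41595972 counts each. Levels are given in CPM, reads scaled to a common library size by the TMM method, which adjusts for library size and composition. The hippocampal origin was seen in its markers, of which 9 of 10 were in the table and all 9 were counted in every library, with a sum of 2340 to 2850 CPM. Tob1, the gene that the knockout targets, ran against the labels: it had 33.9 to 44.5 CPM in the WT libraries and 52.1 to 68.3 CPM in those labelled Tob-KO, without overlap. Counts summed over a gene do not show whether a transcript carries a deleted part, so the genotype is written below as the label of a library. Choroid plexus markers (10 genes, all counted in every library) summed to 25.9 to 43.2 CPM in the 3 WT libraries of 15 min and ranged from 42.7 to 4910 CPM over the other libraries. Endothelial markers (6 genes) summed to 181 to 268 CPM at 15 min, above the 121 to 178 CPM of all other libraries. In bulk tissue, fewer cells of a type and less RNA per cell cannot be told apart.

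Of the 8 members, 7 passed the filter of 0.2 CPM in at least 2 libraries. Fosl1, which encodes FRA-1, had 0 to 5 counts in every library and was not tested. Across the 24 libraries, Fos had the widest range among the tested members, from 4.08 to 64.6 CPM, a ratio of 15.8. Jund had the narrowest, from 121 to 169 CPM, a ratio of 1.4. In the plot of levels by library, Fos, Fosb and Junb stand above their naive levels at 15 min and 1 h, and all members are back near those levels at 3 h.

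**Figure D1:**
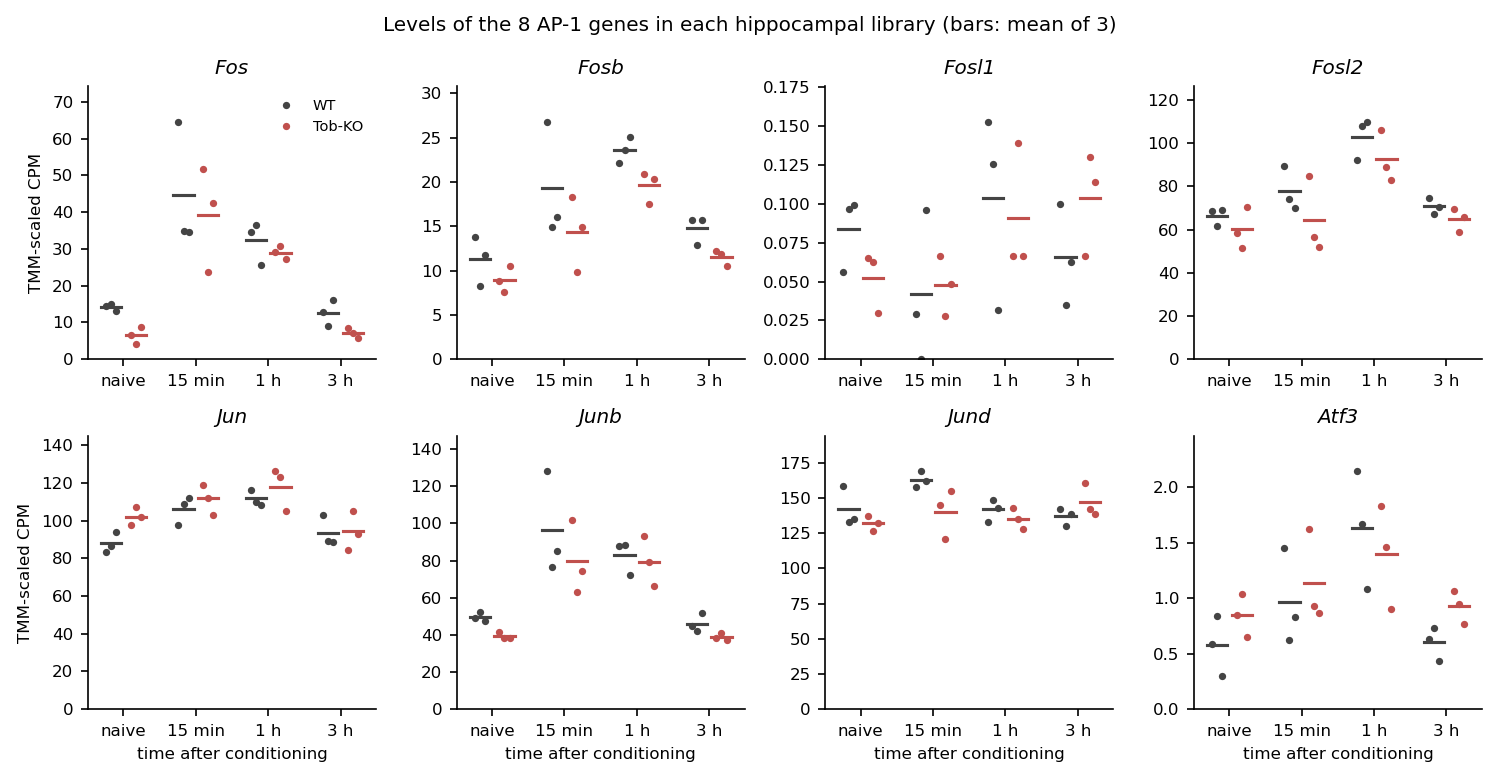
TMM-scaled CPM (y axis, from 0, own scale per gene) of the 8 AP-1 genes by time after conditioning (x axis), with a point per library and a bar for the mean of 3 libraries in WT (dark) and in libraries labelled Tob-KO (red). Fos reached 64.6 CPM at 15 min against at most 14.9 CPM in naive libraries, while Jund stayed between 121 and 169 CPM.

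Fos showed the largest change of the tested members at 15 min. In naive mice it had 14.4, 14.9 and 13.0 CPM in the WT libraries and 6.61, 4.08 and 8.86 CPM in those labelled Tob-KO. At 15 min the WT libraries had 64.6, 34.8 and 34.6 CPM and those labelled Tob-KO 51.7, 23.7 and 42.4 CPM. All 6 libraries of 15 min lay above all 6 naive ones. At 1 h the values were 34.7, 36.6 and 25.7 CPM in WT and 29.1, 30.7 and 27.2 CPM with the Tob-KO label, again above every naive library. By 3 h they had returned to the naive range or close to it, with 12.9, 9.03 and 16.0 CPM in WT and 8.48, 7.12 and 5.91 CPM with the Tob-KO label. Averaged over the genotypes, Fos rose 4.36-fold from naive to 15 min (log2 fold change 2.13 ± 0.20, SE, n = 6 against 6, adjusted p = 6.98e-06, edgeR's quasi-likelihood test, Benjamini-Hochberg adjustment over 19500 genes). At 1 h it was 3.19-fold above naive (log2 fold change 1.67 ± 0.20, edgeR adjusted p = 0.000207), and from 1 h to 3 h it fell by 1.68 on the log2 scale (SE 0.20, edgeR adjusted p = 0.000187).

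Fosb encodes FosB and, by alternative splicing, the long-lived ΔFosB, which a count per gene does not separate. The naive libraries had 13.8, 8.31 and 11.8 CPM in WT and 8.84, 7.63 and 10.5 CPM with the Tob-KO label. At 15 min they had 26.8, 14.9 and 16.0 CPM and 18.3, 9.87 and 14.9 CPM, so that 1 library of 15 min still lay within the naive range. At 1 h all 6 libraries (22.1, 23.6 and 25.1 CPM in WT, 20.9, 17.5 and 20.3 CPM with the Tob-KO label) were above every naive library and above every library of 3 h. At 3 h there were 15.7, 12.9 and 15.7 CPM in WT and 12.2, 11.9 and 10.5 CPM with the Tob-KO label. Fosb was 1.65-fold above naive at 15 min (log2 fold change 0.72 ± 0.15, edgeR adjusted p = 0.0107) and 2.13-fold above at 1 h (1.09 ± 0.15, edgeR adjusted p = 0.00047). The fall from 1 h to 3 h was 0.607-fold (log2 fold change -0.72 ± 0.15, edgeR adjusted p = 0.0105).

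Fosl2, which encodes FRA-2, a Fos protein without the strong activation domain of Fos, was not higher beyond the test's limit at 15 min and was higher at 1 h. Its naive levels were 68.7, 61.9 and 69.0 CPM in WT and 58.4, 51.7 and 70.3 CPM with the Tob-KO label. At 15 min the libraries had 89.5, 74.0 and 69.9 CPM and 85.0, 56.7 and 52.1 CPM, which overlapped the naive values under the Tob-KO label. At 1 h all 6 libraries stood above those of naive and 3 h mice, with 92.2, 108 and 110 CPM in WT and 106, 89.2 and 83.0 CPM with the Tob-KO label. At 3 h the levels were 74.8, 67.4 and 70.4 CPM and 69.4, 59.1 and 65.8 CPM. The change from naive was 0.16 ± 0.10 on the log2 scale at 15 min (edgeR adjusted p = 0.388) and 0.63 ± 0.10 at 1 h (edgeR adjusted p = 0.00156). Fosl2 was the only member called higher at 1 h than at 15 min (log2 fold change 0.47 ± 0.10, edgeR adjusted p = 0.0454). That call was lost without any 1 of 9 of the 12 libraries compared. Over the same step Atf3 had 0.52 ± 0.25 (edgeR adjusted p = 0.362) and Fosb 0.37 ± 0.15 (edgeR adjusted p = 0.266). The call therefore does not set Fosl2 apart from these 2 members.

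Among the Jun genes, Junb had the largest change. JunB pairs with Fos proteins and is a weaker activator than c-Jun. Naive libraries had 48.8, 52.4 and 47.5 CPM in WT and 41.6, 38.3 and 38.1 CPM with the Tob-KO label. At 15 min they had 128, 76.6 and 85.0 CPM and 102, 63.0 and 74.4 CPM, and at 1 h 88.1, 88.5 and 72.0 CPM and 93.1, 79.0 and 66.2 CPM. Every library of 15 min and 1 h lay above every naive library. At 3 h the levels of 44.5, 42.0 and 51.9 CPM in WT and 38.2, 40.9 and 37.4 CPM with the Tob-KO label were again those of naive mice or just below. Junb rose 1.99-fold by 15 min (log2 fold change 0.99 ± 0.12, edgeR adjusted p = 0.00014) and was 1.84-fold above naive at 1 h (0.88 ± 0.12, edgeR adjusted p = 0.000401). It fell by 0.94 on the log2 scale from 1 h to 3 h (SE 0.12, edgeR adjusted p = 0.000258).

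Jun, which encodes c-Jun, the main target of the JNK kinases, changed by far less. It had 83.5, 86.6 and 93.7 CPM in naive WT libraries and 97.8, 107 and 102 CPM in naive libraries labelled Tob-KO. At 1 h the values were 116, 110 and 108 CPM and 126, 123 and 105 CPM, and the lowest of these was below the highest naive value. The levels of 15 min (97.7, 109 and 112 CPM in WT, 119, 112 and 103 CPM with the Tob-KO label) lay in between, and those of 3 h (103, 89.3 and 88.5 CPM, and 84.6, 105 and 92.7 CPM) lay near the naive ones. Jun was 1.21-fold above naive at 1 h (log2 fold change 0.28 ± 0.059, edgeR adjusted p = 0.00859) and fell by 0.29 from 1 h to 3 h (SE 0.059, edgeR adjusted p = 0.00928). At 15 min the difference of 0.20 ± 0.059 missed the limit in edgeR (adjusted p = 0.0545) and passed it in DESeq2.

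Jund, the Jun gene that is active in resting cells, did not pass the test at any time. Its levels were 159, 133 and 135 CPM in naive WT libraries, 158, 169 and 162 CPM at 15 min, 133, 149 and 143 CPM at 1 h and 142, 130 and 139 CPM at 3 h. With the Tob-KO label they were 137, 127 and 132 CPM, 145, 121 and 155 CPM, 143, 135 and 128 CPM, and 161, 142 and 139 CPM in the same order. The libraries of all times overlapped over both genotypes. At 1 h the difference from naive was 0.01 on the log2 scale, with an interval of 2 SE on each side from -0.10 to 0.13, and at 15 min it was 0.14 (interval 0.03 to 0.25, edgeR adjusted p = 0.164). Without the library labelled Tob-KO of 15 min numbered 2, the lowest at 121 CPM, the latter was called.

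Atf3, a stress-induced gene whose protein mostly represses transcription when paired with itself, was scarce, with 9 to 70 counts per library. Its naive levels were 0.588, 0.838 and 0.299 CPM in WT and 0.851, 1.04 and 0.648 CPM with the Tob-KO label. At 1 h it had 2.14, 1.67 and 1.08 CPM and 1.83, 1.46 and 0.898 CPM, so that only the lowest library of 1 h overlapped the naive ones. Levels of 15 min (1.45, 0.618 and 0.833 CPM, and 1.62, 0.925 and 0.869 CPM) and of 3 h (0.635, 0.729 and 0.436 CPM, and 1.06, 0.943 and 0.77 CPM) overlapped the naive range. Atf3 was 2.16-fold above naive at 1 h (log2 fold change 1.11 ± 0.26, edgeR adjusted p = 0.0155) and fell by 1.02 from 1 h to 3 h (SE 0.26, edgeR adjusted p = 0.0339). The second call was lost without any 1 of 10 of the 12 libraries.

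Averaged over the genotypes, 3 of the 7 tested members rose from naive to 15 min (Fos, Fosb and Junb) and none fell, where 1.6% of all 19500 genes tested rose. From naive to 1 h, 6 of 7 rose, all but Jund, where 2.36% of all genes rose. Between 15 min and 1 h only Fosl2 was called higher, against 0.226% of all genes. From 1 h to 3 h, 6 of 7 fell, again all but Jund, against 1.98% of all genes. These comparisons share libraries with each other and are given side by side. From naive to 3 h, 0 of 7 members and 0.0% of all genes were called by edgeR's quasi-likelihood test, 0 members were called by DESeq2, and 1 member, Fosb, had an unadjusted p under 0.05 (8.95% of all genes had), with a log2 fold change of 0.37 ± 0.15 (edgeR adjusted p = 0.503). The median log2 fold change of the members was 0.59 at 15 min, 0.88 at 1 h and 0.05 at 3 h against naive, beside 0.00171, -0.00303 and -0.00719 over all genes. With a fold change of at least 2 required beside the adjusted p, 1 member was called at 15 min (Fos), 3 at 1 h (Fos, Fosb and Atf3) and 2 in the fall to 3 h (Fos and Atf3). The share of all genes under that added limit is not given here.

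**Figure D2:**
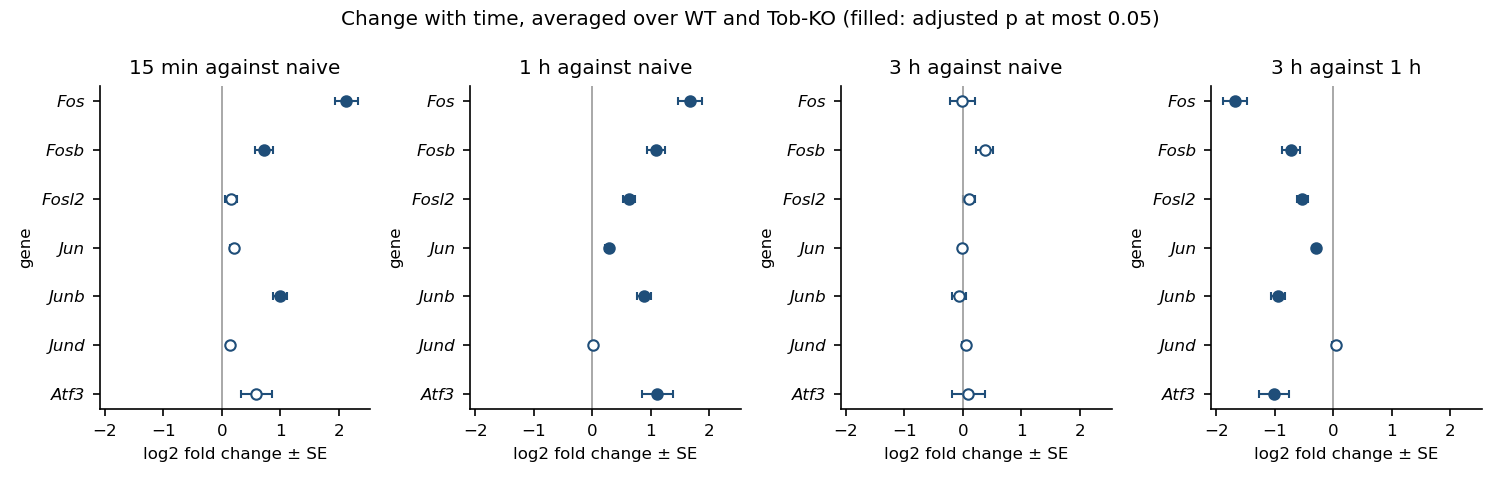
Log2 fold changes averaged over WT and the libraries labelled Tob-KO (x axis, ± SE, 6 libraries against 6) of the 7 tested AP-1 genes (y axis) between time points, filled where the adjusted p of edgeR's quasi-likelihood test was at most 0.05. Fos lies at 2.13 at 15 min and 1.67 at 1 h, and at 3 h all 7 genes lie between -0.06 and 0.37 with no filled point.

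Within each genotype, with 3 libraries a group, fewer members passed. In WT, 2 of 7 rose from naive to 15 min, against 0.0462% of all genes. These were Fos (log2 fold change 1.67 ± 0.28, edgeR adjusted p = 0.0196) and Junb (0.96 ± 0.17, edgeR adjusted p = 0.0252). With the Tob-KO label 2 of 7 rose, against 0.836% of all genes, Fos by 2.59 ± 0.30 (edgeR adjusted p = 0.000231) and Junb by 1.02 ± 0.17 (edgeR adjusted p = 0.00451). In both genotypes the library numbered 1 was the highest of the 3 at 15 min for Fos, Fosb, Fosl2, Junb and Atf3. Its choroid plexus score, the centred mean log2 CPM of the markers, was the lowest of the 3 in both genotypes. The scores were -3.668 against -2.782 and -3.13 in WT, and -2.272 against 2.634 and 1.268 with the Tob-KO label. Without that WT library the WT changes were 1.30 for Fos and 0.71 for Junb and neither passed the limit (edgeR adjusted p = 0.113 for both), and they also missed it without any 1 of the 3 naive WT libraries. With the choroid plexus score of each library as a covariate the WT changes were 1.46 for Fos (edgeR adjusted p = 0.0562) and 0.82 for Junb (edgeR adjusted p = 0.0655), so that 0 members were called in WT, and 3 were still called over both genotypes. The part of the choroid plexus and endothelial RNA in these changes was not tested otherwise.

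From naive to 1 h, 1 member was called in WT, against 0.118% of all genes: Fosb, with a log2 fold change of 1.06 ± 0.21 (edgeR adjusted p = 0.0413). The other changes in WT did not pass although 6 of 7 had an unadjusted p under 0.05, as had 10.8% of all genes, among them Fos with 1.20 ± 0.28 (edgeR adjusted p = 0.0886) and Atf3 with 1.49 ± 0.38 (edgeR adjusted p = 0.11). DESeq2 called 5 members in WT. The share of all genes that DESeq2 called is not given here, so this count is not a result about the members. Leaving out any 1 of the 6 libraries left 0 calls in edgeR. With the Tob-KO label 4 members rose, against 0.421% of all genes. Fos rose by 2.15 ± 0.30 (edgeR adjusted p = 0.00853), Junb by 1.01 ± 0.17 (edgeR adjusted p = 0.0125), Fosb by 1.12 ± 0.22 (edgeR adjusted p = 0.0225) and Fosl2 by 0.63 ± 0.14 (edgeR adjusted p = 0.042). Without the library of 1 h numbered 2, none of these 4 was called.

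From 1 h to 3 h, Fos and Junb fell in both genotypes. In WT this was 2 of 7 members, against 0.19% of all genes, with log2 fold changes of -1.35 ± 0.28 for Fos (edgeR adjusted p = 0.0498) and -0.84 ± 0.17 for Junb (edgeR adjusted p = 0.0354). With the Tob-KO label it was again 2 of 7, against 0.179% of all genes, with -2.02 ± 0.30 for Fos (edgeR adjusted p = 0.00496) and -1.03 ± 0.17 for Junb (edgeR adjusted p = 0.00962). Leaving out single libraries left 0 to 1 calls in WT and 1 to 2 with the Tob-KO label. From 15 min to 1 h, edgeR called 0 of 7 members in either genotype, against 0.0103% of all genes in WT and 0.0% with the Tob-KO label, DESeq2 called 0, and 2 members in each had an unadjusted p under 0.05, as had 10.7% and 8.51% of all genes. From naive to 3 h, edgeR and DESeq2 called 0 of 7 in either genotype, against 0.0% of all genes in both, and 0 members had an unadjusted p under 0.05.

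Between genotypes, Fos had the largest difference in level of the tested members in naive mice and at 3 h, and Fosb at 15 min and 1 h. In naive mice the 3 libraries labelled Tob-KO (4.08 to 8.86 CPM) lay below the 3 WT libraries (13.0 to 14.9 CPM), and at 3 h those labelled Tob-KO (5.91 to 8.48 CPM) lay below WT (9.03 to 16.0 CPM). At 15 min and 1 h the genotypes overlapped. The log2 difference was -1.11 ± 0.24 in naive mice and -0.83 ± 0.21 at 3 h, and neither passed edgeR's exact test (adjusted p = 0.0696 and 0.217). For the naive difference the adjusted p was 0.00368 in DESeq2, which called it, 0.8 in edgeR's quasi-likelihood fit of the same 6 libraries, and 4.11e-05 to 0.916 in edgeR's exact test with each library left out in turn. At 3 h DESeq2 gave an adjusted p of 0.0385, and the difference was not called because the fold change was under 2. At 15 min it was -0.19, with an interval of 2 SE on each side from -0.78 to 0.41, and at 1 h it was -0.15, with an interval from -0.39 to 0.08.

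Of the other members, Junb was lower without overlap in the naive libraries labelled Tob-KO (38.1 to 41.6 CPM against 47.5 to 52.4 CPM), with a log2 difference of -0.33 ± 0.063 (exact test of edgeR, adjusted p = 0.277). It was also lower without overlap at 3 h (-0.25 ± 0.080, exact test of edgeR, adjusted p = 0.863). Jun showed the opposite order in naive mice, with 97.8 to 107 CPM against 83.5 to 93.7 CPM and a log2 difference of 0.22 ± 0.060 (exact test of edgeR, adjusted p = 0.99). Fosb did not overlap at 1 h and at 3 h, where the libraries labelled Tob-KO had the lower values, and the differences of -0.27 ± 0.084 and -0.36 ± 0.11 did not pass (exact test of edgeR, adjusted p = 0.592 and 0.889). Jund was lower without overlap at 15 min with the Tob-KO label (-0.22 ± 0.086, exact test of edgeR, adjusted p = 0.478). Atf3 was higher without overlap at 3 h with that label, at 0.77 to 1.06 CPM against 0.436 to 0.729 CPM, and its log2 difference of 0.62 ± 0.27 did not pass (exact test of edgeR, adjusted p = 1.0). At each of the 4 times 0 of 7 members met both limits, an adjusted p no higher than 0.05 and a change of 2-fold or more. Over all genes tested the share that met them was 0.0218% in naive mice, 0.555% at 15 min, 0.033% at 1 h and 0.0274% at 3 h. Members without overlap between the genotypes numbered 3, 1, 1 and 4 of 7 at these times, where 11.5%, 13.5%, 11.5% and 12.2% of all genes tested did not overlap. By the exact test 3, 1, 1 and 3 members had a p under 0.05 before adjustment, as had 4.04%, 8.05%, 5.34% and 3.97% of all genes. DESeq2 called 1 member in naive mice, Fos, and 0 at the other times.

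**Figure D3:**
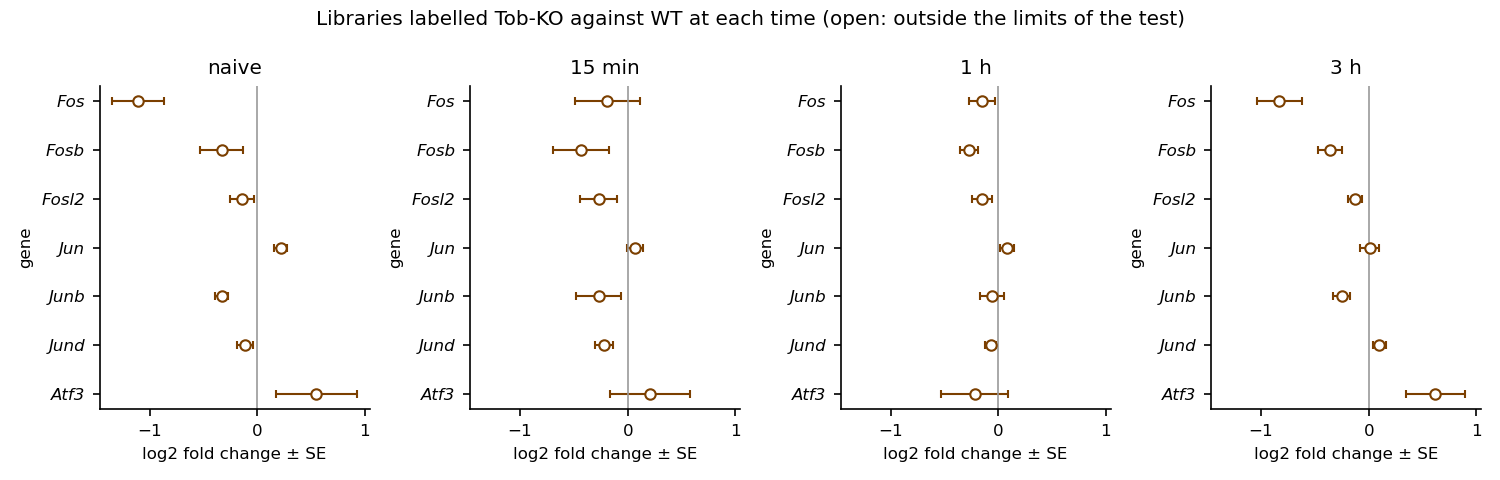
Log2 fold changes of libraries labelled Tob-KO against WT (x axis, ± SE from the quasi-likelihood fit of the same 6 libraries) for the 7 tested AP-1 genes (y axis) at each time, all open because none met the limits of the exact test. Fos lies at -1.11 in naive mice and -0.83 at 3 h, and at -0.19 and -0.15 at 15 min and 1 h.

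Taking the 4 times together, 12 libraries against 12, edgeR's quasi-likelihood test called 0 of 7 members, against 0.421% of all genes, and 5 members had an unadjusted p under 0.05, as had 13.5% of all genes. Fos had the largest difference (log2 fold change -0.57 ± 0.14, edgeR adjusted p = 0.0788), and DESeq2 called it (adjusted p = 0.0225) and no other member. Fosb had -0.35 ± 0.11 (edgeR adjusted p = 0.163), Junb -0.23 ± 0.083 (edgeR adjusted p = 0.23) and Jun 0.09 ± 0.042 (edgeR adjusted p = 0.331). The test of whether the change after conditioning itself differed between genotypes called 0 of 7 members and 0.0% of all genes from naive to 15 min, to 1 h and to 3 h, and DESeq2 called 0. Fos was the 1 member with an unadjusted p under 0.05 in the first 2 of these (4.82% and 4.15% of all genes had), with a change that was larger with the Tob-KO label by 0.92 ± 0.40 at 15 min and by 0.95 ± 0.40 at 1 h (edgeR adjusted p = 0.981 and 0.999). For Junb the difference of changes at 15 min was 0.06, with an interval from -0.41 to 0.53.

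Levels of different members can be compared only per length, so CPM were divided by the exonic length of each gene in the GENCODE annotation of GRCm38 (CPM per kilobase). In naive WT mice the order was Jund (85.4 ± 8.70 CPM per kilobase, SD, n = 3), Jun (27.6 ± 1.63), Junb (21.5 ± 1.10), Fosl2 (6.87 ± 0.416), Fos (5.99 ± 0.416), Fosb (1.81 ± 0.444), Atf3 (0.267 ± 0.125) and Fosl1 (0.0414 ± 0.0120), and no neighbours in this order overlapped. The order was the same in naive libraries labelled Tob-KO and at 3 h in both genotypes. At 15 min and 1 h Junb overlapped Jun, and Fos stood above Fosl2, which it overlapped only at 1 h in WT. The 3 Jun genes ranked above every Fos gene in all 8 groups.

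The summed level of the 8 members was 149 ± 7.88 CPM per kilobase in naive WT mice, 204 ± 16.6 at 15 min, 185 ± 7.88 at 1 h and 147 ± 8.22 at 3 h. With the Tob-KO label it was 139 ± 3.60, 180 ± 25.2, 178 ± 15.4 and 147 ± 6.46. Jund made up 57.0% ± 2.74 (SD, n = 3) of the sum in naive WT libraries and 48.3% ± 5.05 at 15 min, and 56.9% ± 0.97 and 46.9% ± 3.97 with the Tob-KO label, without overlap between naive and 15 min in either genotype. The share of Fos went from 4.01% ± 0.32 to 9.18% ± 2.73 in WT and from 1.98% ± 0.695 to 9.08% ± 2.22 with the Tob-KO label. Junb went from 14.4% ± 1.23 to 20.4% ± 4.05 and from 12.3% ± 0.516 to 19.1% ± 2.36. These shares are of RNA and say nothing of protein.

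**Figure D4:**
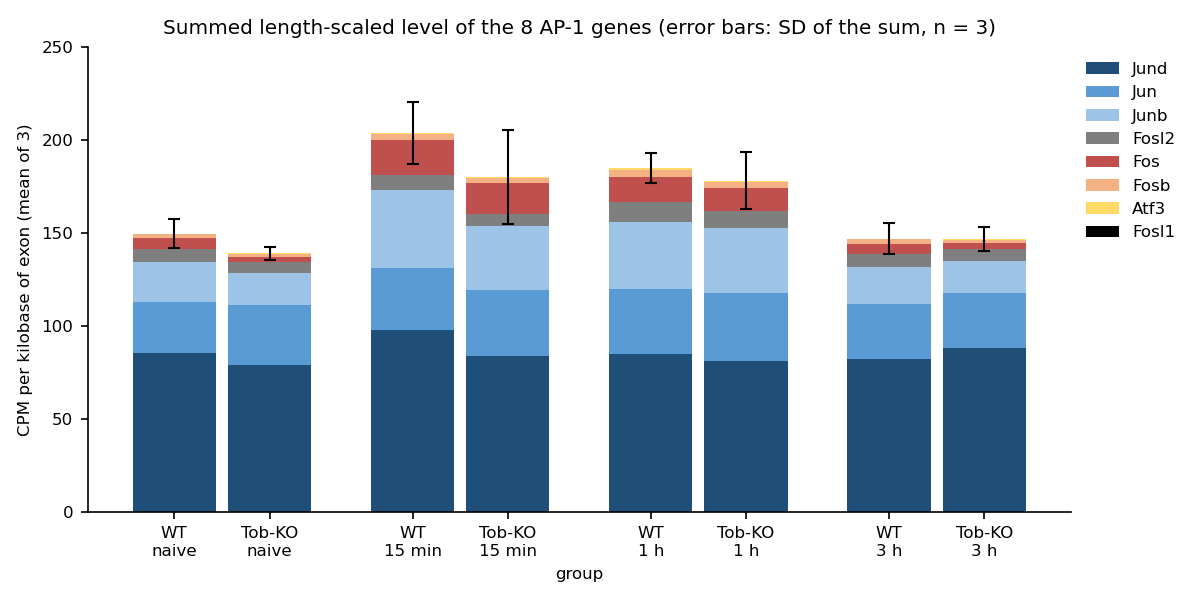
Stacked mean CPM per kilobase of exon (y axis, from 0) of the 8 AP-1 genes in each group (x axis), with error bars for the SD of the sum over 3 libraries. Jund forms the largest part in all 8 groups, and the sum in WT is 149 in naive mice and 204 at 15 min.

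The annotated ends of these transcripts were searched for ATTTA and TATTTAT, the core of the AU-rich elements through which short-lived RNAs are destabilised. Fos had 4 ATTTA and 2 TATTTAT in 815 bases after the stop codon, and Fosl2 had 8 and 3 in 4653 bases. Jun had 4 and 1, Atf3 3 and 1, Junb 2 and 0, and Fosb, Fosl1 and Jund 1 and 1 each. Of 21037 genes with an annotated end, 27.6% held a TATTTAT and 65.2% an ATTTA.

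The genes whose levels ran most like a member's over the 24 libraries (Pearson correlation of log2 CPM over 14450 genes, all libraries and time points pooled, so that the correlation includes the shared time course) were described with no test. Outside the members, nearest to Fos were Egr2 (r = 0.963), Arc (0.933) and Dusp1 (0.918), a zinc finger factor, a synaptic protein and a MAP kinase phosphatase of the same immediate early kind. Fos and Junb had r = 0.953 with each other, and nearest to Junb outside the members were Arc (0.958), Cyr61 (0.939) and Gadd45b (0.936). Fosb ran, among genes that are no members, most like Egr1 (0.889), Egr4 (0.866) and Klf4 (0.848), and had r = 0.855 with Fosl2. Nearest to Fosl2 outside the members were Midn (0.862), Arid5a (0.856) and Dnajb1 (0.839). Likewise outside the members, Jun had Ptbp3, Csnk1g1 and D16Ertd472e at 0.817 to 0.830, and Jund had Pcsk1n, Dact3 and Map3k10 at 0.872 to 0.910, with r from -0.116 to 0.368 to every other tested member. Atf3, the scarcest, reached 0.774 with Tiparp, the nearest outside the members.

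The same time course was then read in genes around AP-1, with the calls averaged over the genotypes. Of 14 other immediate early genes, all tested, 9 rose from naive to 15 min and 7 to 1 h, 0 were called at 3 h, and 9 fell from 1 h to 3 h, against 1.6%, 2.36%, 0.0% and 1.98% of all genes. Their median log2 fold changes from naive were 0.73, 0.55 and 0.01. The largest rise was that of Egr2 (2.70 ± 0.28 at 15 min and 2.34 ± 0.28 at 1 h, edgeR adjusted p = 1.81e-05 and 0.000207). From 15 min to 1 h, 3 of these genes already fell, against 0.185% of all genes: Npas4, a neuronal activity factor (-1.32 ± 0.15, edgeR adjusted p = 0.000161), Btg2, a relative of Tob (-0.90 ± 0.099, edgeR adjusted p = 0.000161), and Ier2 (-0.75 ± 0.15, edgeR adjusted p = 0.0296). Nr4a3, a nuclear receptor, rose over that step (0.44 ± 0.089, edgeR adjusted p = 0.0318), as Fosl2 did. No AP-1 member was called lower at 1 h than at 15 min, where Fos had -0.45 ± 0.19 (edgeR adjusted p = 0.293) and Junb -0.11 ± 0.12 (edgeR adjusted p = 0.724).

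**Figure D5:**
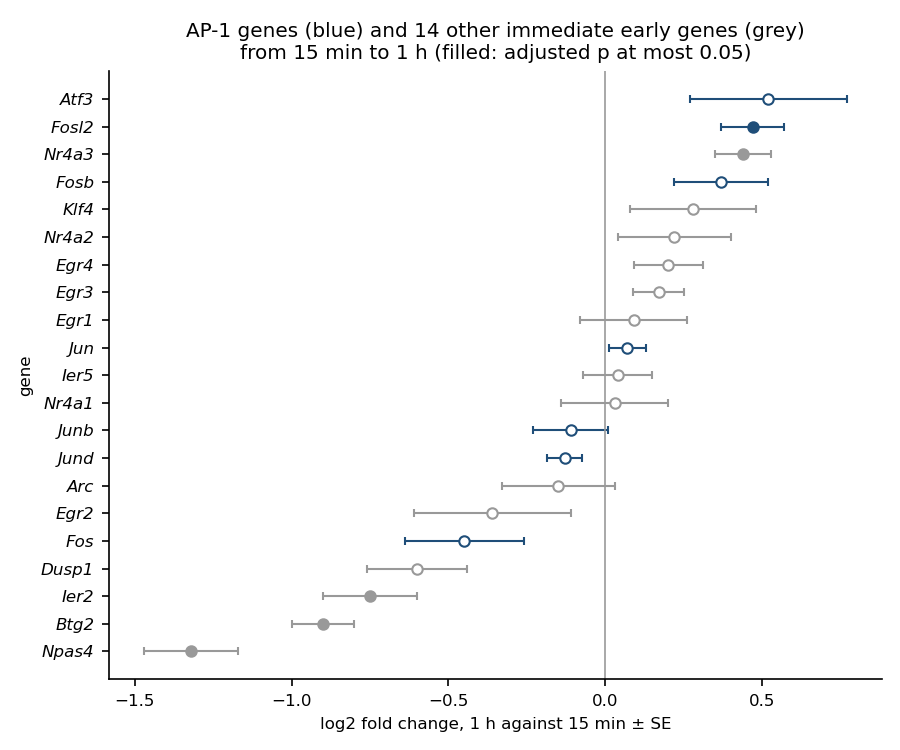
Log2 fold changes from 15 min to 1 h averaged over the genotypes (x axis, ± SE, 6 libraries against 6) of the 7 tested AP-1 genes (blue) and 14 other immediate early genes (grey), in order of size (y axis) and filled where the adjusted p of edgeR's quasi-likelihood test was at most 0.05. Npas4, Btg2 and Ier2 lie lowest, at -1.32, -0.90 and -0.75, and Fosl2 and Nr4a3 are filled on the upper side at 0.47 and 0.44.

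Of 17 further bZIP genes related to AP-1, all tested, 0 were called by edgeR at 15 min, against 4.35% of all genes in either direction. From naive to 1 h 4 rose, against 2.36% of all genes. These were Maff, a small Maf protein (0.76 ± 0.20, edgeR adjusted p = 0.0285), Nfil3 (0.37 ± 0.079, edgeR adjusted p = 0.00859), Atf4, a factor of the integrated stress response (0.18 ± 0.044, edgeR adjusted p = 0.0199), and Creb1 (0.17 ± 0.039, edgeR adjusted p = 0.0125). Maff also rose from 15 min to 1 h (1.11 ± 0.21, edgeR adjusted p = 0.0238), and Nfil3 fell from 1 h to 3 h (-0.46 ± 0.080, edgeR adjusted p = 0.00288). Their medians from naive were 0.04 at 15 min, 0.08 at 1 h and 0.04 at 3 h.

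Regulators upstream of AP-1 moved little. Of 21 listed genes (SRF and its ternary complex factors, CREB coactivators, MEF2 factors, MAP kinases and the ubiquitin ligase subunit Fbxw7), 19 were in the table and tested. Only Srf rose from naive to 1 h (0.19 ± 0.036, edgeR adjusted p = 0.00498), against 2.36% of all genes. Only Srf fell from 1 h to 3 h (-0.21 ± 0.036, edgeR adjusted p = 0.0032), against 1.98% of all genes. Counts of RNA do not report the phosphorylation through which these proteins act. Of 12 genes known as AP-1 targets in various tissues, 11 were tested and 0 were called by edgeR at 15 min, 1 h or 3 h against naive. Of all genes, 4.35%, 5.89% and 0.0% were called in either direction at these times, so a count of 0 among 11 genes lies near those shares. Penk, which encodes the enkephalin precursor, was higher at 3 h than at 1 h (0.44 ± 0.12, edgeR adjusted p = 0.0372), as were 1.33% of all genes.

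Members on the genome differ in how surely their reads can be assigned. No other annotated gene overlaps Fos, Fosb or Fosl2. Jun is overlapped on the opposite strand by Junos, Junb by Prdx2, Jund by Gm11175, Atf3 by Gm24748 and Fosl1 by Ccdc85b. The strand setting of the counting is not stated. Reads of the overlapping stretches may therefore have been counted for the member, for its partner or for neither.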

How the data were processed

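Poly(A) RNA of whole hippocampi was made into directional libraries and sequenced as 150-bp paired-end reads. Reads were aligned by the authors to GRCm38, by STAR (version 2.6.1d in the submitters' processing notes) run through nf-core/rnaseq, and assigned to genes by HTSeq (version 0.9.0) in OmicsBox. The deposited values are raw counts of reads, as whole numbers for each gene and each of 24 libraries, and were not normalized. The annotation release, the strand setting and the use of duplicate reads in counting are not given in the sources used here. Groups were taken from the sample labels, and the table names its 15 min columns as the series' design text does. Genes were counted without molecular identifiers.

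Counts were analysed with edgeR 4.0.16 in R 4.3.3, with DESeq2 1.42.0 as an alternative. Genes with at least 0.2 CPM in 2 libraries were kept (19500 over 24 libraries, 18169 to 18364 over the 6 libraries of a time). Changes with time, and their difference between genotypes, were assessed by quasi-likelihood tests of edgeR in a single fit of 24 libraries with 8 group means, TMM normalization and Benjamini-Hochberg adjustment over all genes tested, at an adjusted p of at most 0.05. Genotypes at 1 time were compared with edgeR's exact test on 6 libraries, with a fold change of at least 2 also required, after the methods of the study. At 15 min this called 84 genes higher and 18 lower with the Tob-KO label, more of each than the study reports. The reason for this difference was not tested. The SE of a log2 fold change came from the quasi-likelihood fit, and intervals are 2 SE on each side. The scripts were tested on simulated counts with known changes. In a simulation of WT naive to 15 min with 19158 genes, 91% of changes of 1 on the log2 scale were recovered and 5.03% of the calls were false. In one of the genotypes at 15 min with 18245 genes, the exact test recovered 94% and 13% of its calls were false. Both simulations were scored on the adjusted p alone. The fold change of at least 2 required for genotype calls was not simulated, so these shares do not describe those calls. In each simulation 100 genes changed by 1 and 100 by 2, all of at least 1 mean CPM. The real comparison of WT naive to 15 min called 9 genes. Simulated libraries shared the same gene means with independent noise, so tissue differences between libraries were absent. The recovered shares therefore do not give the power in the real libraries.

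The members and gene lists were chosen with earlier results of these data known, and the changes averaged over both genotypes and the robust estimation were added after the data were seen. Named genes were all 8 members, Tob1, up to 5 genes per list with the smallest adjusted p among those called in a comparison over time, and the 3 genes of at least 1 mean CPM most correlated with each member. Nr4a3 fell outside that rule and was named after its values were seen. Libraries carry numbers 1 to 3, taken from the labels. Deviations from the group means did not correlate over 0.1 in every pair of any comparison, so the numbers were not taken as pairs. Replicates are separate mice per the study. Gene symbols, exon lengths and overlaps came from GENCODE on GRCm38, and promoters from RefSeq on GRCm38.p6, where 7 of 8 members matched. A protein table was not used here.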

Additional observations from a re-analysis of the deposited data

How the results depend on the processing

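Of 189 recomputed counts of called members under other settings, 160 stayed within 1.5 times the main count, and of 204 recomputed with a library left out, 166 did. Of 533 log2 fold changes of members under other settings 0 changed sign, 37 newly passed and 18 no longer passed the limit. With a library left out, 61 of 606 no longer passed, 5 newly passed and 1 did change sign: the difference between genotypes of the Atf3 change to 15 min, which ranged from -0.70 to 0.08 and was 0.08 without WT 15 min replicate 1. The causes were not tested. For the other settings below, the share of all genes called is not given. A setting that calls more members may call more genes of every kind, so those counts are not results about the members.

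Requiring a fold change of at least 2 left 1 call averaged over the genotypes at 15 min, 3 at 1 h, 0 from 15 min to 1 h and 2 from 1 h to 3 h, and 1 each in WT from naive to 15 min and from 1 h to 3 h. In WT from naive to 15 min, 0 members were called with the choroid plexus score as a covariate, with robust estimation and with 6 libraries in the quasi-likelihood fit. There the log2 fold change over the 8 alternatives was 1.46 to 1.67 for Fos and 0.82 to 0.97 for Junb, lowest with the covariate. In WT from naive to 1 h, where 1 was called, robust estimation gave 0, the covariate 2, 6 libraries 3, no filter 4, DESeq2 5 and the exact test 6. In WT from 1 h to 3 h, where 2 were called, robust estimation gave 0, RLE size factors 1, 6 libraries 4 and the exact test 6, and in WT from 15 min to 1 h the exact test called 1, Fosl2. With the Tob-KO label the quasi-likelihood fit of 6 libraries gave 0 from naive to 15 min, and from 1 h to 3 h DESeq2 gave 5 and the exact test 4. From 15 min to 1 h over both genotypes, robust estimation and a fit of 12 libraries gave 0. Between genotypes DESeq2 called 1, Fos, in naive mice and over all times, where no filter also gave 1. At 3 h it gave Fos an adjusted p of 0.0385 with a log2 fold change of -0.83, under the limit of 2-fold.

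With each library left out in turn, the counts were 0 to 2 (WT naive to 15 min), 0 (WT naive to 1 h), 0 to 1 (WT 1 h to 3 h), 2 to 3 (Tob-KO naive to 15 min), 0 to 4 (Tob-KO naive to 1 h), 0 to 1 (Tob-KO 15 min to 1 h) and 1 to 2 (Tob-KO 1 h to 3 h). Averaged over the genotypes they were 3 to 4 at 15 min, 6 at 1 h, 0 to 1 from 15 min to 1 h and 5 to 6 from 1 h to 3 h. Between genotypes they were 0 to 1 in naive mice (Fos, without the Tob-KO library numbered 3), at 3 h (Fos, without the WT library numbered 2) and over all times (Fos, without the naive Tob-KO library numbered 3).

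Libraries share only a number across groups. With the replicate number as a block, 3 members were called in WT from naive to 1 h (Fosb, Junb and Atf3), 3 in WT from 1 h to 3 h, and 3 and 6 averaged over the genotypes at 15 min and 1 h.

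Fosl1 and Atf3 are limited by depth, at 57 and 785 counts over all 24 libraries.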

Other observations

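Beside the AP-1 genes, markers of blood vessel cells moved at 15 min when averaged over the genotypes. Of 6 endothelial markers, 3 rose from naive to 15 min, against 1.6% of all genes, and the 3 fell again to 1 h, against 0.185%. Cldn5, a tight junction protein of the blood-brain barrier, had log2 fold changes of 0.85 ± 0.15 (edgeR adjusted p = 0.00285) and -0.94 ± 0.15 (edgeR adjusted p = 0.00852). Kdr and Flt1, both VEGF receptors, rose by 0.65 ± 0.12 and 0.42 ± 0.074 (edgeR adjusted p = 0.00515 and 0.00323). Of 6 astrocyte markers, 2 rose by 15 min: Aqp4, a water channel, by 0.32 ± 0.047 (edgeR adjusted p = 0.000675), and Gja1, a gap junction protein, by 0.23 ± 0.038 (edgeR adjusted p = 0.00242). Aqp4 and Gja1 were also above naive at 1 h, by 0.22 ± 0.047 and 0.16 ± 0.038 (edgeR adjusted p = 0.00821 and 0.0189). From naive to 15 min, 0 of 6 microglia, 0 of 6 oligodendrocyte, 0 of 6 striatal neuron, 0 of 6 meningeal fibroblast, 0 of 6 blood and 0 of 10 choroid plexus markers were called, and 1 of 9 hippocampal neuron markers, Dsp, was lower. Of all genes, 1.6% were called higher and 2.75% lower over that step. These lists were chosen with earlier results of these data known, and the part of vessel RNA in the AP-1 changes was not tested.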
